A study of Mus musculus with 9 samples.

Results

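R3 cells, the Flt3+CD11c+ fraction of Ly6Chi CD115+ bone marrow cells that the study called pre-DCs, were compared with R1 cells, the Flt3-CD11c- fraction that it called monocytes. The comparison used 6 of the 9 arrays of the series, the 3 titled R3 and the 3 titled R1, and all 19937 genes that a probe set named alone. The other 3 arrays held R2, the Flt3+CD11c- fraction, and served to place each difference between R3 and R1. All populations came from steady-state marrow of C57Bl/6 mice, 8 weeks old by the labels, with no treatment and no altered allele. The study sorted them by flow cytometry from lineage-negative, MHCII- cells, so that each was defined by surface protein and not by origin, and amplified 1 ng RNA per sample for a whole-transcript array. Each of 3 label dates gave 1 array of each population, and neither what the dates mark nor whether mice were pooled is given in the sources used here.

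Monocytes and dendritic cells (DCs) both arise in bone marrow from myeloid progenitors. Monocytes carry receptors for microbes, complement and antibody, hold lysosomal enzymes and the NADPH oxidase that makes reactive oxygen, and respond readily to interferon. DC precursors depend on the receptor Flt3 and its ligand, express transcription factors such as IRF8, and give rise to cells that present antigen on MHC class II. Both kinds of precursor can divide before they leave the marrow, and genes of cell division are therefore read in each.

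Values are log2 of the deposited intensities, and differences are R3 minus R1 on that scale unless stated. A gene was called when its adjusted p (limma, 1 model of the 9 arrays, Benjamini-Hochberg over all genes) was under 0.05. The fit called 2693 genes, 13.5% of those tested, of which 1294 rose (6.49%) and 1399 fell (7.02%) in R3. Counts of called list members below are to be read beside these shares. At least 2-fold differences were seen in 304 of the higher genes (1.52% of all) and 443 of the lower (2.22%). Differences of at least 16-fold were called in 12 genes higher in R3 and 9 lower. The median difference over all genes was -0.02. Because nothing in the labels says that arrays came from separate mice, p-values reflect only array-to-array spread, possibly technical. In sorted bulk RNA, fewer cells of a type and less RNA per cell cannot be told apart.

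Across the 9 arrays, median log2 intensity lay between 5.86 and 6.02. The genes of the proteins that part R3 from R1 in the sort were higher in R3, *Itgax* (CD11c) by 5.57 and *Flt3* by 3.81, and are no findings. Other sort genes differed too, although both populations passed the same gate for their proteins. *Csf1r* (CD115, -0.51) and *Sirpa* (-1.0), gated positive, were called lower in R3, and *Kit* (0.82), *H2-Aa* (2.85) and *H2-Ab1* (2.66), gated negative, were called higher. All 8 measured pre-DC markers, *Itgax* and *Flt3* among them, were called higher in R3, and 4 of 6 monocyte markers, the gated *Csf1r* among them, were called lower (2 without the arrays of date 1 or 2). Part of both counts was therefore set by the sort, and the lists were written with earlier results of these data known. With the gated genes included, summed linear intensity was 12805 to 14490 per R3 array against 973 to 1370 per R1 array for the pre-DC markers and 10554 to 13068 against 23379 to 24720 for the monocyte markers. No marker of B cells (9 measured), T cells (8), erythroid cells (7), basophils and mast cells (10), eosinophils (5) or megakaryocytes (6) was called, and of 9 NK cell markers only the receptor gene *Klrk1* was (1.62 higher), a call lost without the arrays of date 1 or 2. Without the arrays of date 1, 2 megakaryocyte markers were called lower. Of 12 resident macrophage markers, *Cd163* (2.06) was called higher and *Hmox1* (-2.65) and *Axl* (-0.87) lower. Summed intensity of these 12 was 769 to 869 per R3 array and 1841 to 2142 per R1 array. Only *Cd177* of 10 neutrophil markers was called, and it was lower (-3.08). Summed neutrophil markers ranged from 525 to 5670 over the R3 arrays and from 1695 to 3432 over the R1 arrays. *Ngp*, which encodes a neutrophil granule protein, read 10.73, 6.27 and 9.03 in R3 replicates 1 to 3 against 6.18, 4.67 and 6.50 in R1, so that R3 replicates 1 and 3 stood above the rest. *Ly6g*, which defines neutrophils, read at most 5.03 on any of the 6 arrays. The part of such cells in the results below was not tested.

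**Figure D1:**
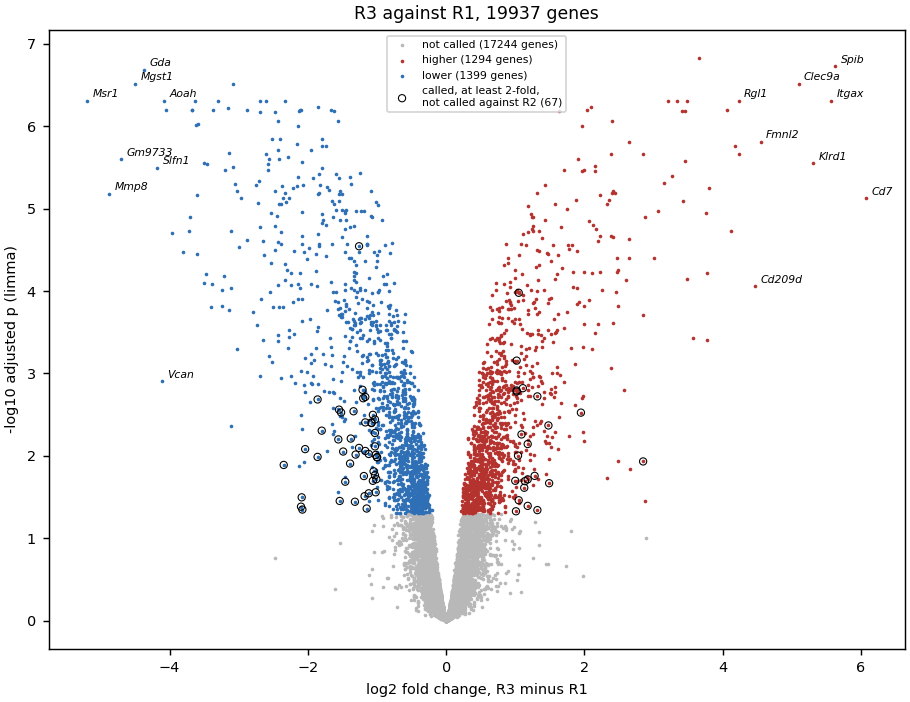
Difference between R3 and R1 in log2 intensity (horizontal axis) against -log10 of the limma adjusted p (vertical axis), 1 point a gene. Red points are the 1294 genes called higher in R3, blue points the 1399 called lower, grey points the rest, and circles the 67 genes at least 2-fold apart that were not called between R3 and R2. The circled genes lie low in the plot, mostly between 1 and 2 log2 units from 0.

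*Klrd1*, which encodes the lectin-like receptor CD94 and was on the list of plasmacytoid DC genes, was among the genes of largest difference. It read 4.50, 4.93 and 5.06 in the R1 arrays and 10.04, 10.46 and 9.91 in R3. The groups did not overlap, and R3 was 5.31 higher (SE 0.27, 39.6-fold, limma adjusted p = 2.81e-06). *Fmnl2*, a formin that builds unbranched actin filaments, read 5.63, 6.27 and 5.52 in R1 and 10.35, 10.49 and 10.23 in R3, again with a wide gap between the groups (4.55, SE 0.21). *Rgl1*, which encodes an exchange factor for Ral GTPases, rose by 4.23 (SE 0.15), *Trp53i11*, a gene induced by p53, by 4.18 (SE 0.19) and the C-type lectin *Cd209d* by 4.47 (SE 0.40). *Cd209d* belongs to a family of near-identical lectin genes, and its probe set may pick up its relatives. R2 means were nearer to R1 than to R3 for these genes. *Fmnl2* was 1.16 higher in R2 than in R1 and *Rgl1* 0.47 higher, and neither was called (limma adjusted p = 0.0684 and 0.281).

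*Ccnd1*, which encodes the G1 cyclin D1, was among the 12 genes of largest rise. Its values were 6.74, 6.46 and 6.40 in R1, 7.01, 7.16 and 6.80 in R2, and 10.92, 10.52 and 10.35 in R3. The R3 arrays stood 4.06 above R1 (SE 0.16, 16.7-fold, limma adjusted p = 6.37e-07) and well apart from both other populations. Of 18 D-type cyclin, CDK inhibitor and Myc family genes, 6 were called higher and none lower. They included *Ccnd2* (cyclin D2, 1.62), *Mycl* (1.47), *Myc* (1.18) and *Cdkn2c*, which encodes an inhibitor of the cyclin D kinases (0.63).

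On the lower side, *Tfec*, a transcription factor of the MITF family found in macrophages, read 9.77, 9.87 and 10.07 in R1 and 5.27, 6.71 and 6.30 in R3. It fell by 3.81 (SE 0.30, limma adjusted p = 3.32e-05), and all R2 arrays lay above R1 (10.46, 10.36 and 10.43). *Sqor*, whose mitochondrial enzyme oxidizes hydrogen sulfide, fell by 3.72 (SE 0.26), and *Vcan*, the matrix proteoglycan versican, was lower as well (-4.11, SE 0.57). The R1 arrays for *Vcan* were spread widely, at 8.79, 9.77 and 10.56, and all lay above the R3 arrays, at 5.25, 5.08 and 6.47. *Slfn1*, of the interferon-linked Schlafen family, fell by 4.18 (SE 0.22), and falls of like size were seen for *Klra2*, of the Ly49 receptor family (-3.97, SE 0.28), and *Gm9733* (-4.70, SE 0.23). These 3 genes have close paralogs in the mouse genome, so that their probe sets may not separate single genes.

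**Figure D2:**
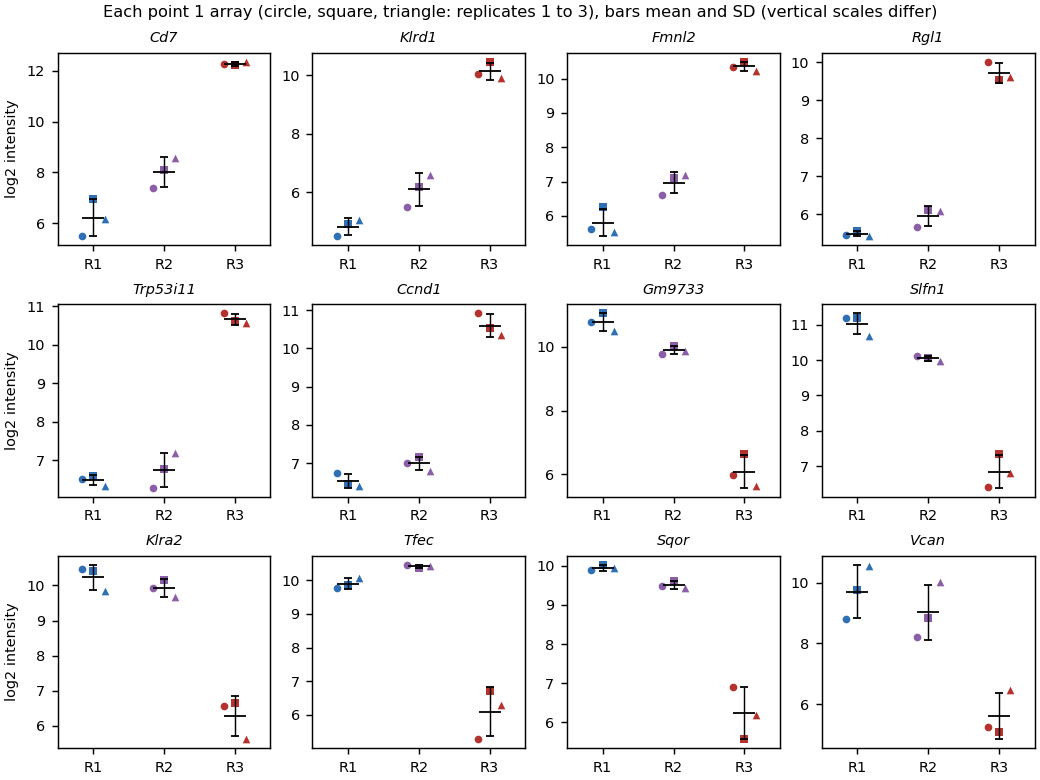
Log2 intensity of 12 genes of large difference on each array (vertical axes, scales differ), for R1, R2 and R3 (horizontal axes); points are single arrays and bars the mean and SD. From *Cd7* to *Ccnd1* R3 lies far above R1 and R2, and from *Gm9733* to *Vcan* far below both.

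Most of these differences separated R3 from both other populations, but 1097 of the 2693 genes called between R3 and R1 (40.7%) were not called between R3 and R2, a class that holds 5.5% of all genes tested. These comparisons share the R3 arrays and their outcomes are therefore linked. Among the 747 called genes that were at least 2-fold apart, 67 were not called against R2, with 22 of them higher and 45 lower in R3. R2 had a mean between the others in 66 of the 67. On a scale with R1 at 0% and R3 at 100%, R2 stood at a median of 45.3% for the 22 higher genes and 45.09% for the 45 lower, against 9.93% and 15.86% for the other 2-fold genes; the way the set was chosen favors such positions. R2 lay nearer to R3 than to R1 in 24 of the 67. The absence of a call against R2 did not show that R3 and R2 were alike, since the 95% interval of R3 minus R2 included a 2-fold difference in 51 of the 67 and the unadjusted limma p was under 0.05 in 54. At the edge of the set were *Tmem159* and *Cox6a2*, called against R2 (limma adjusted p = 0.0496 and 0.0499), and *Spink2* and *H2-Aa*, not called (0.0522 and 0.0525).

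The test of whether R2 had moved from R1 is their own comparison, in which 78 genes were called (0.391%). Each gene named here as called between R2 and R1 lost that call when any 1 R2 array, R1 replicate 2 or the arrays of any date were left out, and kept its direction in all 22 alternatives that hold R2. With the label date as a replicate block, *Slfn5*, *Tcp11l2*, *Cenpf* and *Prc1* were still called and the other genes named for R2 were not. Of the 67 genes it called 3, *Aspm*, *Slfn5* and *Tcp11l2*. *Aspm*, which encodes a protein of mitotic spindle poles, read 8.33, 8.34 and 8.69 in R1, 9.20, 9.19 and 9.19 in R2, and 9.46, 9.50 and 9.54 in R3. No R1 array reached the R2 or R3 arrays, and R2 was 0.74 above R1 (limma adjusted p = 0.0259) and R3 1.05 above R1 (limma adjusted p = 0.000105). *Slfn5*, a Schlafen gene induced by interferon, read 9.93, 9.80 and 9.55 in R1 and fell to 8.87, 8.81 and 8.77 in R2 and 8.45, 8.52 and 8.51 in R3. R3 minus R2 was -0.33, with a 95% interval of -0.54 to -0.11, so that most of its fall of 1.26 from R1 (SE 0.10) was present in R2. *Tcp11l2*, of less studied function, was 1.36 lower in R2 and 1.20 lower in R3 than in R1 (limma adjusted p = 0.0262 and 0.002), and R3 minus R2 was 0.16 with a 95% interval of -0.25 to 0.57.

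The 22 higher genes of this set held no member of the mitosis list described next. Besides *Aspm* they included *Nek2*, a kinase that parts the centrosomes (1.32, SE 0.20), *Mastl*, the Greatwall kinase that holds cells in mitosis (1.14, SE 0.27), and *Ect2*, an exchange factor for RhoA at the cleavage furrow (1.02, SE 0.15). The *Nek2* arrays read 7.14, 7.56 and 8.11 in R1, 8.39, 8.35 and 8.34 in R2, and 8.94, 8.99 and 8.83 in R3, a stepwise order without overlap. R3 minus R2 was 0.56 for *Nek2* (95% interval 0.11 to 1.00), 0.19 for *Mastl* (-0.41 to 0.79) and 0.30 for *Ect2* (-0.03 to 0.64). Others of the 22 were *H2-Aa* and the small nucleolar RNA genes *Snora20* (1.95, SE 0.32) and *Snord53* (1.01, SE 0.28), which guide chemical changes of other RNAs, the sodium/calcium exchanger *Slc24a5* (1.02, SE 0.13), the synaptic adhesion gene *Lrrtm2* (1.49, SE 0.35) and the unnamed models *Gm10847*, *Gm9888* and *Gm6653*. 

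Mitosis genes rose in 21 of 29 measured cases in R3 against R1, and none fell, against 6.49% of all genes called higher. The differences were small, with a median of 0.61 over the list, and only *Cenpf* (centromere protein F, 1.24, SE 0.09) and *Kif23* (a kinesin of the central spindle, 1.03, SE 0.09) reached 2-fold. Of the 21, 19 were not called against R2, where the share over all called genes was 40.7%. That share depended on size, at 8.97% among called genes at least 2-fold apart. Most mitosis genes differed by less than 2-fold, so 40.7% is not matched to them in size. Genes called higher against R1 and not against R2 made up 2.63% of all genes. *Prc1*, which bundles microtubules of the central spindle, read 9.41, 9.54 and 9.77 in R1, 10.37, 10.47 and 10.42 in R2, and 10.39, 10.36 and 10.37 in R3. R2 and R3 arrays were interleaved and no R1 array reached them, with R3 0.80 above R1 (SE 0.09, limma adjusted p = 0.000353) and R3 minus R2 at -0.05 (95% interval -0.25 to 0.16). *Mki67*, which encodes the proliferation antigen Ki-67, read 11.03, 11.02 and 11.17 in R1, 11.73, 11.74 and 11.63 in R2, and 11.64, 11.69 and 11.66 in R3. It showed the same order, with R3 0.59 above R1 (SE 0.07) and 0.04 below R2 (95% interval of R3 minus R2 -0.19 to 0.12).

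For 8 of the 29, R2 itself was called higher than R1. They were *Mki67* (0.63), *Prc1* (0.85), *Cenpf* (0.91), *Kif23* (0.65), the spindle checkpoint kinase *Ttk* (0.83), the chromosomal passenger kinase *Aurkb* (0.60), the spindle protein *Nusap1* (0.61) and the kinetochore subunit *Ndc80* (0.58), with limma adjusted p from 0.0153 for *Cenpf* to 0.039 for *Ndc80*. The median position of R2 over the 21 called genes was 88.7%, against 21.8% over all genes called between R3 and R1. The R1 arrays differed among themselves. After each gene was centered on its mean over the 9 arrays, the list median was -0.63, -0.36 and -0.12 in R1 replicates 1 to 3, 0.14 to 0.17 in R2, and 0.18 to 0.27 in R3, so that the R1 arrays covered a wider range than either other population. The count of 21 became 28 without R1 replicate 3, 14 with each array centered on its median, 14 to 28 over all fits that left out 1 array, 12 without the 3 arrays of date 1, 8 without those of date 2, 12 on the R3 and R1 arrays alone, and 6 with the methods' t-test after adjustment. The 8 calls of R2 over R1 were less stable, falling to 0 when any R2 array or R1 replicate 2 was left out, to 3 when R3 replicate 1 was, and to 5 when R1 replicate 1 or R3 replicate 3 was, and rising to 18 when R1 replicate 3 was, with 1 left after median centering. With the label date as a replicate block 2 were left, *Cenpf* and *Prc1* (limma adjusted p = 0.0388 and 0.0418), and without the arrays of any date none.

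**Figure D3:**
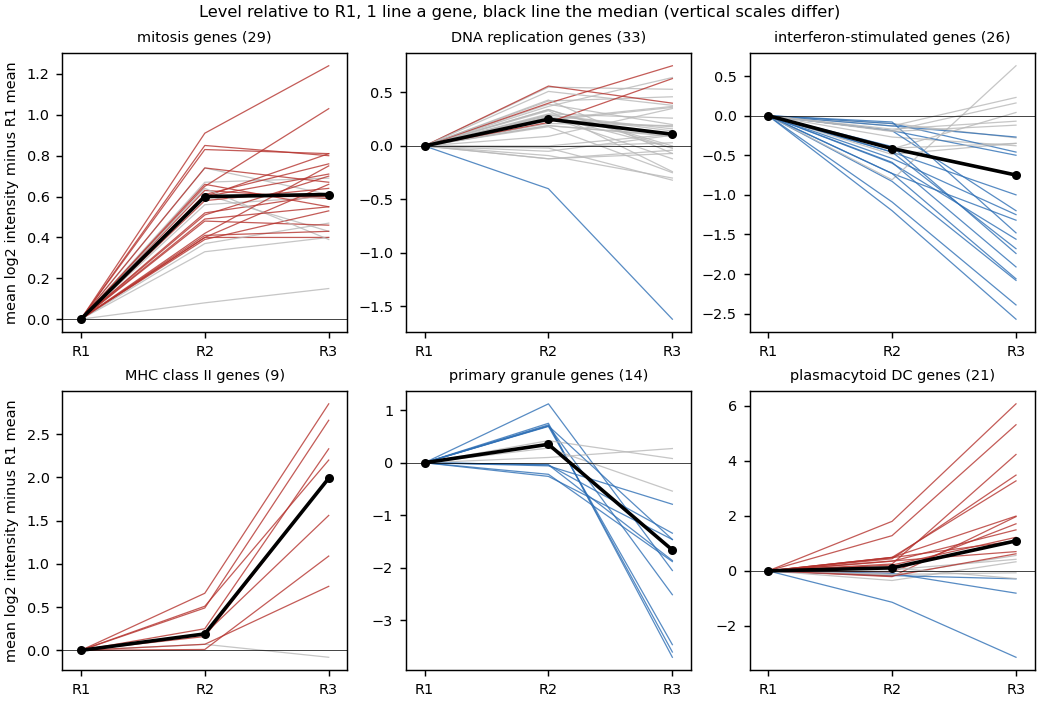
Mean log2 intensity of R1, R2 and R3 (horizontal axes) minus the R1 mean (vertical axes, scales differ), 1 line a gene, for 6 gene lists; red lines are genes called higher in R3 against R1, blue lines those called lower, grey lines genes not called, and black lines list medians. For mitosis genes the median was 0.60 in R2 and 0.61 in R3, whereas for MHC class II genes it was 0.19 in R2 and 1.99 in R3, and for primary granule genes 0.35 in R2 and -1.66 in R3.

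DNA replication genes did not show the same calls. Of 33 measured, 3 were called higher in R3 than in R1, against 6.49% of all genes. They were *Pole*, the catalytic subunit of DNA polymerase epsilon (0.75, SE 0.14), *Uhrf1*, which maintains DNA methylation after replication (0.63, SE 0.13), and the primase subunit *Prim1* (0.40). The 3 became 6 without R1 replicate 3, 1 without the arrays of date 1 and 0 without those of date 2, and *Prim1* lost its call in 15 of 23 alternatives. The list median was 0.11 in R3 and 0.25 in R2 relative to R1. *E2f2*, an E2F transcription factor, went the other way, at 9.60, 9.62 and 9.62 in R1, 9.26, 9.20 and 9.18 in R2, and 8.03, 7.90 and 8.05 in R3. Its arrays were tight and its populations separate, with R3 lower by 1.62 than R1 (SE 0.06, limma adjusted p = 6.51e-07) and R2 lower by 0.40 (limma adjusted p = 0.0469, and 0.0935 with the label date as a replicate block). R1 replicate 1 was the lowest array for this list too, with a centered median of -0.42 against -0.03 and 0.10 in the other R1 arrays.

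Promoters are shown for 3 mitosis genes with a match to the motif TTTGAA upstream of the start. They had the largest rise among such members not called against R2, with 1 chromosome left out as given below. TTTGAA (or TTCAAA on the other strand) is the core of the cell cycle genes homology region, bound by complexes that repress mitosis genes outside division. The sequences are the 120 bases before the RefSeq start in GRCm38.p6, on the strand of the gene, with matches in capitals. That of *Prc1* is chr7:80294356-80294475 (+), that of *Ube2c* chr2:164769809-164769928 (+) and that of *Top2a* chr11:99024190-99024309 (-).
Prc1: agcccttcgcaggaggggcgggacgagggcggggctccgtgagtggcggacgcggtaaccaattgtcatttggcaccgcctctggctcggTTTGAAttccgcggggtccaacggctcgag
Ube2c: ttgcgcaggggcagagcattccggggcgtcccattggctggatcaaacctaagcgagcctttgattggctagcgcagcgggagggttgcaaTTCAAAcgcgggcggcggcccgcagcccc
Top2a: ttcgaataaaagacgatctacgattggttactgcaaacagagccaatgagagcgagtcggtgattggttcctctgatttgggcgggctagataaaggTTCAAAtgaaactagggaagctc
Counted from the start, with -1 the base before it, the match began at -30, -29 and -23. *Ube2c*, the ubiquitin-conjugating enzyme of the anaphase-promoting complex, was 0.66 higher in R3 than in R1 (SE 0.09) and *Top2a*, DNA topoisomerase II alpha, 0.61 higher (SE 0.10).

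In windows of 250 bases before to 50 after the start, TTTGAA on either strand was found for 19 of 24 mitosis genes that had a promoter in the table (79.2%), for 4 of 28 DNA replication genes (14.3%) and for 17.3% of all 15561 genes with a promoter. CCAAT, on either strand, was found for 19 of the 24 mitosis genes (79.2%), 16 of the 28 replication genes (57.1%) and 41.7% of all. Conversely, the E2F-type motif TTTCGCGC was found for 6 of 28 replication genes (21.4%), 1 of 24 mitosis genes (4.17%) and 0.521% of all. Among the 435 genes with a promoter that were called higher against R1 and not against R2, 25.5% held TTTGAA. Of those at least 2-fold higher, 18 had a promoter and 3 of these held it (16.7%), near the share of all genes. Among mitosis genes called higher, 14 of 17 held TTTGAA (82.4%), near the 79.2% of the whole list. The motif therefore describes the list and not the calls. A match is a description of the letters in the window and not of binding. Promoters on chromosome 18 were left out of those printed above and below.

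Interferon-stimulated genes were lower in R3, with 16 of 26 measured called lower and none higher (7.02% of all genes were called lower), and a list median of -0.75. *Ifit1*, which encodes a protein that binds foreign RNA, read 7.52, 7.57 and 7.21 in R1, 6.20, 6.31 and 6.53 in R2, and 5.17, 4.75 and 5.21 in R3. The 3 populations formed separate steps, with R3 lower by 2.39 than R1 (SE 0.15, limma adjusted p = 8.68e-06) and R2 lower by 1.09 than R1 (limma adjusted p = 0.0282, and 0.0629 with the label date as a replicate block). *Isg20*, an RNA exonuclease gene, was likewise called lower in R2 than in R1 (-0.54, limma adjusted p = 0.0236, and 0.0594 with the block) and in R3 than in R1 (-1.25). Neither R2 call held without any 1 R2 array. The other members of largest fall were *Ifit3* (-2.57, SE 0.32), *Oasl2* (-2.08), the chemokine gene *Cxcl10* (-2.06) and *Oas1a* (-1.91), an activator of RNase L. On the scale from R1 (0%) to R3 (100%), the median R2 position of the called members was 38.1%, and the count was 7 with the methods' t-test after adjustment and 14 to 16 when 1 array was left out.

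Of the interferon-stimulated list, 3 members were called lower and not called against R2, and of these *Rsad2* (viperin, -1.0) alone was at least 2-fold lower and so among the 45. The motif GAAANNGAA, a form of the interferon-stimulated response element, was found on either strand in the window for 11 of the 29 of the 45 genes that had a promoter in the table (37.9%), for 13 of 22 interferon-stimulated genes (59.1%) and for 9.2% of all genes. Of the 347 genes called at least 2-fold lower that had a promoter, 17.9% held it. Other motifs were scanned too, and some were also above their share of all genes among the 29. They included TATAAA (27.6% against 13.6%), CAGCTG (9 of 29 against 18.4%) and TTGCNNCAA (3 of 29 against 2.12%). Others were below it, such as CTTTGA (10.3% against 16.4%). The 120 bases before the start are shown for the 3 list members of largest fall that held the motif there, with matches in capitals, on the strand of the gene. They are chr19:34583409-34583528 (+) for *Ifit3*, chr19:34640769-34640888 (+) for *Ifit1* and chr5:120907526-120907645 (-) for *Oas1a*.
Ifit3: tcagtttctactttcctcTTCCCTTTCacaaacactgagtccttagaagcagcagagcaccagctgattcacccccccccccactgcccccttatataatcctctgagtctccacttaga
Ifit1: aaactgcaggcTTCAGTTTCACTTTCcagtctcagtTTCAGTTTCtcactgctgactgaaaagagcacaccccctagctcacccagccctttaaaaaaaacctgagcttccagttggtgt
Oas1a: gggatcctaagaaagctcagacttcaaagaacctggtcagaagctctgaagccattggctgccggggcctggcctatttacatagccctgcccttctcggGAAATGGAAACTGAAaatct
Counted from the start, with -1 the base before it, *Ifit1* held matches that began at -109, -103 and -84, *Ifit3* at -102 and *Oas1a* at -20 and -14. The first pair in *Ifit1* and the pair in *Oas1a* overlap.

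*Apoe*, which carries cholesterol in lipoproteins, was another of the 45 lower genes. It read 11.29, 11.72 and 10.83 in R1, 10.24, 11.28 and 10.16 in R2, and 10.12, 9.04 and 9.09 in R3. R3 lay below R1 on every array (-1.86, SE 0.38, limma adjusted p = 0.0103), while R2 overlapped R1, and R3 minus R2 was -1.14 (95% interval -2.0 to -0.28). *C5ar1*, the receptor for complement C5a, read 7.33, 8.01 and 8.18 in R1, 7.0, 6.89 and 7.57 in R2, and 6.47, 6.40 and 6.01 in R3. It fell by 1.55 (SE 0.25), and its relative *C3ar1* changed by -1.12 (SE 0.28). The cysteine protease gene *Ctsl* (-1.18, SE 0.30), the early response gene *Ier3* (-1.15, SE 0.32) and the G protein subunit *Gngt2* (-1.17, SE 0.20) fell too. The call was lost in 15 of 23 alternatives for *Ier3*, 12 of 23 for *Ctsl* and 9 of 22 for *C3ar1*. Also in the set were *Tlr6* (-1.02) and *Siglec1* (-1.0), the lectin CD169 of macrophages and of monocytes exposed to interferon.

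**Figure D4:**
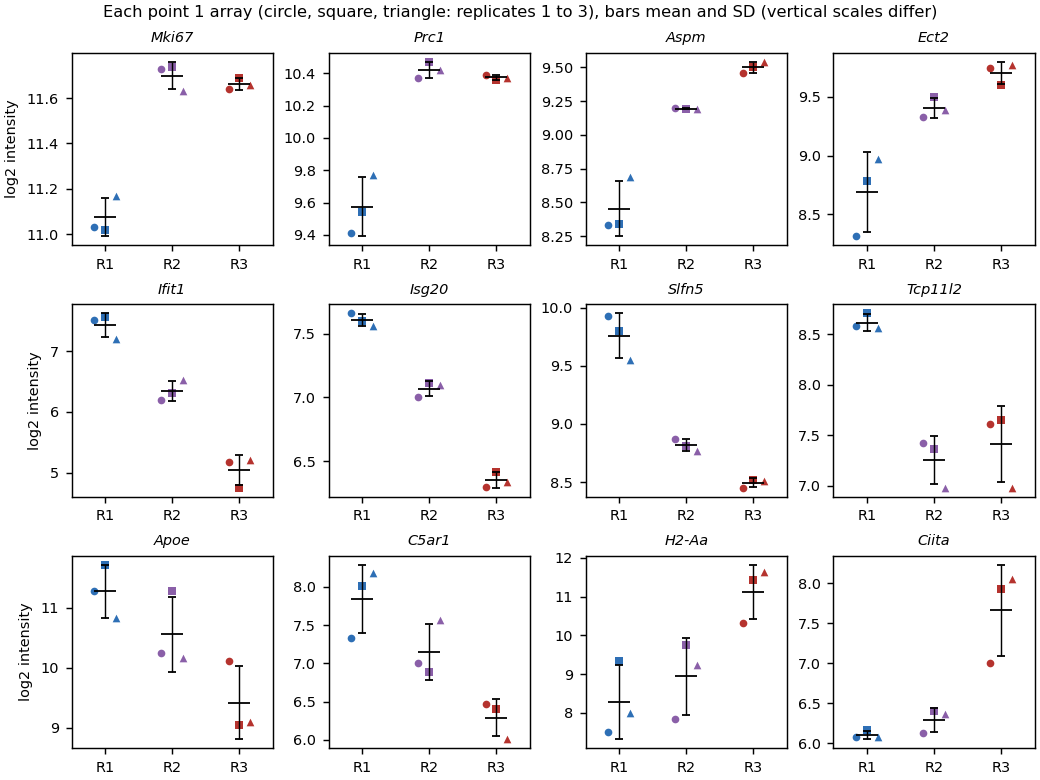
Log2 intensity on each array (vertical axes, scales differ) for 12 genes in R1, R2 and R3 (horizontal axes); points are single arrays and bars the mean and SD. For *Mki67* and *Prc1* the R2 and R3 arrays are interleaved above R1, for *Ifit1* and *Isg20* the populations step down in turn, for *Tcp11l2* R2 and R3 share a level below R1, and for *Ciita* R2 lies near R1 and R3 above.

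Microbial sensors of several families were lower in R3. Of 23 NOD-like, inflammasome and cytosolic sensor genes, 17 were called lower and none higher, with a median of -0.66. *Casp4*, which encodes the caspase that senses intracellular endotoxin, read 9.03, 8.95 and 8.93 in R1, 8.31, 8.56 and 8.40 in R2, and 6.59, 6.66 and 6.68 in R3. All populations were separate, with R3 lower by 2.33 than R1 (SE 0.08) and R2 lower by 0.54 (limma adjusted p = 0.0338, and 0.0677 with the label date as a replicate block). The R2 call was also lost without any 1 R2 array. Other falls were those of the nucleic acid sensors *Zbp1* (-2.28) and *Ddx58* (RIG-I, -1.80), of *Il18* (-1.52) and of *Naip2*, a sensor of bacterial secretion systems (-1.46). The 17 became 11 without the arrays of date 1, 8 without those of date 2 and 6 with the methods' t-test after adjustment.

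Of 24 Toll-like receptor pathway genes, 12 were called lower and 3 higher. *Tlr7*, an endosomal receptor for single-stranded RNA, read 8.81, 8.73 and 8.87 in R1, 7.72, 7.65 and 7.62 in R2, and 6.36, 4.79 and 5.85 in R3. R2 lay between without overlap, and R3 minus R1 was -3.14 (SE 0.31). The RNA receptors *Tlr8* (-3.39) and *Tlr13* (-3.11) and the endotoxin-binding *Lbp* (-3.22) fell alike. In the opposite direction, *Tlr12*, a receptor for protozoan profilin, read 5.87, 5.81 and 5.88 in R1 and 8.48, 8.72 and 8.30 in R3. It rose by 2.64 (SE 0.12), and *Cd180* (0.39) and its partner *Ly86* (0.23) were the other genes called higher. Without the arrays of date 2 the 3 became 1.

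Surface and effector genes of monocytes fell broadly. Of 37 monocyte and macrophage surface genes, 25 were called lower and 1 higher, with a median of -0.85. Large falls outside the Fc and scavenger receptors were those of *Clec5a* (-3.47, SE 0.30), *Csf3r* (-3.3) and *Clec4e* (-3.11). *Clec5a* and *Clec4e* encode C-type lectins that signal through ITAM adaptors. The gene called higher was *Cd163*, the hemoglobin-haptoglobin scavenger receptor, which read 5.75, 6.07 and 5.51 in R1 and 7.68, 7.99 and 7.82 in R3 (2.06, SE 0.14). Its ligand partner *Hp* was among the lower genes (-4.05). The list count fell to 15 without the arrays of date 2 and to 12 with the methods' t-test after adjustment.

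Primary granule genes gave a pattern in which R2 stood on the far side of R1. Of 14 measured, 11 were called lower in R3 and none higher, with a median of -1.66, and R2 had a median position of -20.1%. *Mpo*, myeloperoxidase, read 11.39, 11.49 and 11.96 in R1, 12.68, 12.04 and 12.27 in R2, and 8.25, 7.66 and 8.12 in R3. R3 was lower by 3.60 than R1 (SE 0.22, limma adjusted p = 6.88e-06), whereas R2 minus R1 was 0.72 and was not called (limma adjusted p = 0.245). The protease genes *Elane* (-3.46) and *Prtn3* (-2.51) and *Ms4a3* (-2.05) also fell, and no member of the list was called between R2 and R1. Of 20 secondary granule and neutrophil-type genes, 9 were called lower and none higher. *Chil3* (-3.25), *Cd177* (-3.08) and the microsomal glutathione transferase *Mgst1* (-4.50) were among them, and 8 or 9 were called lower when any 1 array was left out. *Ngp* (2.89), *Camp* (1.98) and *Ltf* (1.74), all of neutrophil granules, had higher means in R3 with overlapping arrays and were not called (limma adjusted p = 0.0985, 0.29 and 0.216). Without R3 replicate 2, 3 genes of the list were called higher.

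Transcription factor genes of both lineages separated the populations. Of 17 DC fate regulators, 10 were called higher in R3 and 2 lower. Those lower were *Nfil3* and *Id2*, both known for roles in later conventional DC development. *Nfil3* read 9.92, 10.02 and 9.99 in R1, 9.55, 9.43 and 9.63 in R2, and 6.18, 6.96 and 6.27 in R3, a difference of -3.50 (SE 0.18). *Id2* read 9.50, 9.99 and 9.09 in R1 and 6.97, 7.35 and 7.54 in R3, a difference of -2.24 (SE 0.30), with R2 overlapping R1, and was not called without the arrays of date 1. The largest rises were those of *Spib* (5.63), *Bcl11a* (2.4) and *Tcf4*, in that order. On the separate list of plasmacytoid DC genes, 13 of 21 were called higher, 11 of them at least 2-fold, and 3 lower. Among the smaller rises of DC fate regulators, *Irf4* was 1.60 higher (limma adjusted p = 0.000998). *Zbtb46*, a marker of the conventional DC line, was 0.98 higher (limma adjusted p = 0.0154). The call for *Zbtb46* was lost without R3 replicate 1 and without R1 replicate 2, and its adjusted p ranged from 0.000257 to 0.243 over the alternatives.

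Monocyte and granulocyte regulators were called lower in 9 of 19 cases and higher in none. Beside *Tfec*, the C/EBP family gene *Cebpb* read 9.02, 9.15 and 9.33 in R1 and 7.26, 7.24 and 7.49 in R3 (-1.84, SE 0.10). *Nfe2*, an NF-E2 subunit of megakaryocytes and myeloid cells, fell by 1.84 (SE 0.11), *Cebpe* by 0.97 and *Bach1*, a heme-regulated repressor, by 0.83. *Spi1*, which encodes PU.1, read 11.43, 11.76 and 11.74 in R1 and 11.78, 11.63 and 11.82 in R3. The groups overlapped and the difference was 0.10 (SE 0.10, limma adjusted p = 0.619). The study stained PU.1 protein and reported more of it in R3 and R2 than in R1, which RNA intensity does not measure. *Ccr2*, the chemokine receptor of marrow egress, was 0.17 lower in R3 and not called (limma adjusted p = 0.145).

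MHC class II genes were called higher in 8 of 9 cases, with a median of 1.99, in cells sorted as MHCII- on the surface. *Ciita*, the master regulator of the class II genes, read 6.07, 6.16 and 6.07 in R1, 6.12, 6.40 and 6.36 in R2, and 7.0, 7.93 and 8.05 in R3. R3 lay above both other populations, by 1.56 over R1 (SE 0.23, limma adjusted p = 0.00193). *H2-Aa*, a class II alpha chain gene, varied far more, at 7.50, 9.35 and 7.99 in R1, 7.84, 9.76 and 9.23 in R2, and 10.33, 11.42 and 11.63 in R3. Its difference of 2.85 had an SE of 0.60, and its R1 arrays overlapped those of R2. *H2-Oa*, of the class II-like modulator of peptide loading, rose by 2.20 (SE 0.16), and the invariant chain gene *Cd74* by 1.99 (SE 0.37). Without the arrays of date 3 the count was 2, without those of date 2 it was 5, and with the methods' t-test after adjustment it was 2. The H2 genes are near-identical in part, so that their probe sets may share signal. Of 15 MHC class I loading genes, *Tap1* was called higher (0.44) and *Psmb10* lower (-0.42), or 13.3% against 13.5% of all genes. *Tap1* lost its call without the arrays of date 1 or 3, and *Psmb10* in 12 of 23 alternatives.

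**Figure D5:**
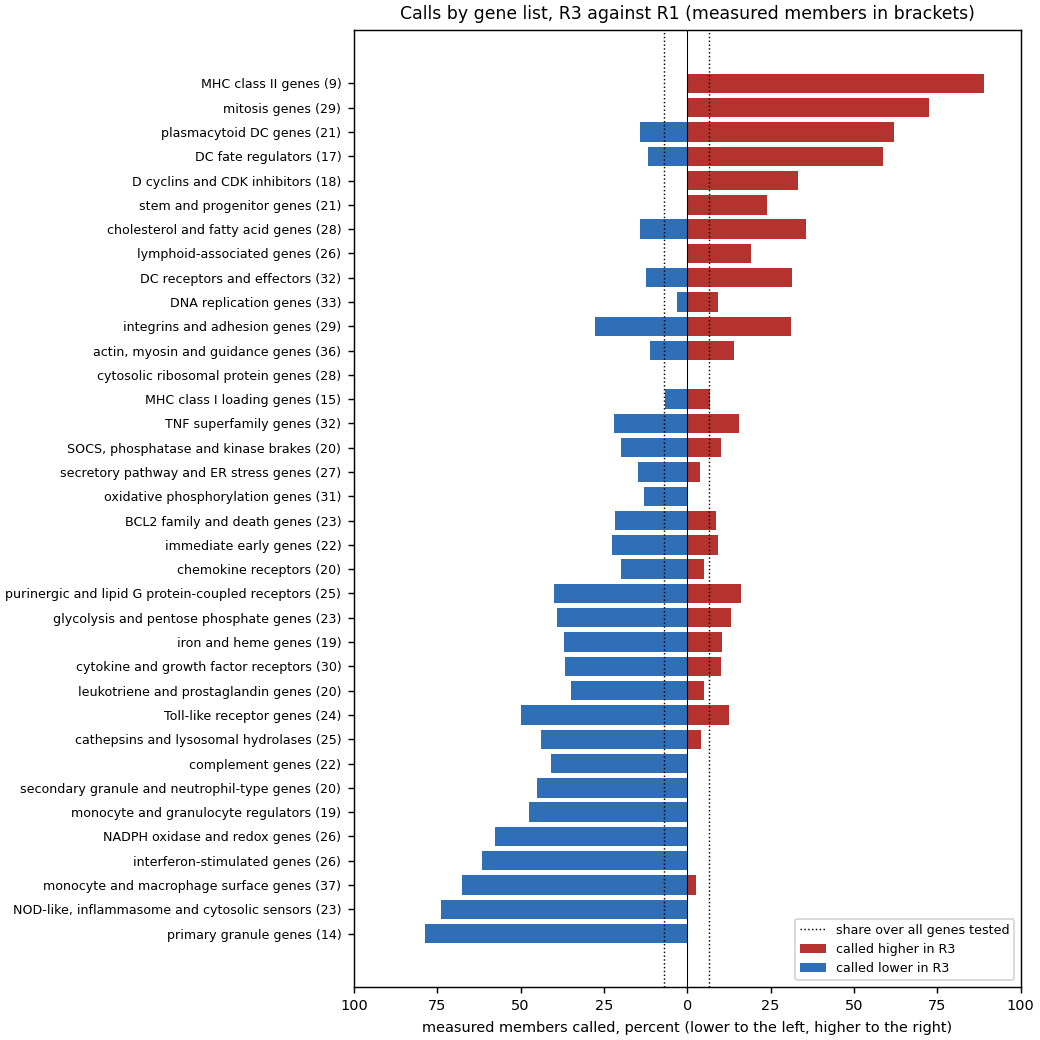
Share of measured members of 36 gene lists called higher (right, red) or lower (left, blue) in R3 than in R1, in percent (horizontal axis), with the number measured in brackets; lists are ordered by the difference between the shares. Dotted lines give the shares over all genes, 6.49% higher and 7.02% lower. MHC class II and mitosis genes lie at the top and primary granule genes at the bottom, and no ribosomal protein gene was called.

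Genes of oxidant production and defense were lower in R3. Of 26 NADPH oxidase and redox genes, 15 were called lower in R3 and none higher, with a median of -0.49. *Ncf4*, the p40phox subunit of the NADPH oxidase, read from 9.91 to 10.32 in R1, from 10.06 to 10.30 in R2 and 7.39, 6.68 and 7.10 in R3. It fell by 3.02 (SE 0.18), and R2 was interleaved with R1. *Gpx3* (-2.79), *Gstm1* (-2.75) and *Mgst2* (-2.74), enzymes of peroxide and glutathione metabolism, fell as well.

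Iron genes moved in both directions, with 7 of 19 called lower and 2 higher, against 7.02% and 6.49% of all genes. *Tfrc*, the transferrin receptor, read 6.37, 6.51 and 6.81 in R1, 7.67, 7.56 and 7.41 in R2, and 10.09, 10.13 and 9.94 in R3. The populations formed 3 separate steps, with R3 higher by 3.49 than R1 (SE 0.12, 11.2-fold) and R2 higher by 0.98 (limma adjusted p = 0.0236, and 0.0601 with the label date as a replicate block). The R2 call was also lost after median centering and without any 1 R2 array. *Hmox1*, the heme-degrading oxygenase, was lower by 2.65 (SE 0.20) and the ferritin light chain gene *Ftl1* by 0.97.

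In lipid metabolism, 10 of 28 cholesterol and fatty acid genes rose in R3 and 4 fell, against 6.49% and 7.02% of all genes. *Fads2*, the delta-6 desaturase, read 5.33, 6.34 and 6.26 in R1 and 9.84, 9.51 and 9.86 in R3 (3.76, SE 0.25, 13.5-fold). The desaturase *Fads1* (1.26) and squalene epoxidase gene *Sqle* (1.27) also rose. *Lpl*, lipoprotein lipase, fell by 3.15 (SE 0.12), and the fatty acid carrier *Fabp5* fell by 1.66. *Lpl* was also called lower in R2 than in R1 (-0.81, limma adjusted p = 0.0341), a call lost after median centering, with the label date as a replicate block (0.0601) and in 7 of 9 fits without 1 array. The 10 became 6 without R3 replicate 1, 5 or 6 without the arrays of any date, 6 on the R3 and R1 arrays alone and 3 with the methods' t-test after adjustment. The 4 became 7 without R1 replicate 1 and 2 without the arrays of date 1 or 2.

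Of 23 glycolysis and pentose phosphate genes, 9 were called lower and 3 higher. The myeloid hexokinase *Hk3* (-2.21, SE 0.13), 6-phosphogluconate dehydrogenase *Pgd* (-1.74) and aldolase *Aldoa* (-1.24) fell, and the glucose transporter *Slc2a3* rose (1.31). Of 31 oxidative phosphorylation genes 4 were called lower (12.9%, against 7.02% of all genes) and none higher. The largest change was that of *Sdhd* (-0.67). The 4 became 2 without R1 replicate 2 or after median centering, 1 without R1 replicate 3 or on the R3 and R1 arrays alone, and 2, 0 and 1 without the arrays of dates 1, 2 and 3. None of 28 cytosolic ribosomal protein genes was called, and their median difference was 0.02. Of 20 leukotriene and prostaglandin genes, 7 were called lower, led by the platelet-activating factor hydrolase *Pla2g7* (-2.68) and the leukotriene B4 receptor *Ltb4r1* (-2.12), and 1, the prostaglandin E2 receptor *Ptger4*, higher (1.25). Lysosomal genes were called lower in 11 of 25 cases, with *Ctsd* (-1.48) and *Lipa* (-1.13) among them, and higher in 1. The lower count was 3 without the arrays of date 2 and 6 without those of date 3.

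Receptors and signaling genes divided between the populations. Of 30 cytokine and growth factor receptor genes, 11 were called lower, led by *Csf3r* (-3.3). *Tnfrsf1b* (TNF receptor 2, -1.97) and *Ifngr1* (-1.08) were also among them. The 3 called higher were *Flt3*, *Kit* (0.82) and *Il10ra* (0.67). *Kit* ranged from 5.25 to 6.36 over the 6 arrays, and its protein was used to exclude cells. Flt3 protein was used to part R3 from R1. In the TNF superfamily, *Tnfsf9* (4-1BB ligand) rose by 2.87 (SE 0.19), *Cd27* by 1.33 and the BAFF receptor *Tnfrsf13c* by 1.17, while *Fas* fell by 2.10 (SE 0.28) and the death receptor *Tnfrsf21* by 1.95. Of 25 purinergic and lipid G protein-coupled receptors, 10 were called lower, with the cannabinoid receptor *Cnr2* (-2.69, SE 0.10) and *P2ry1* (-2.33) in front, and 4 higher; the 10 became 6 without R1 replicate 2, and the 4 became 2 without the arrays of date 1 or 2. The phosphatase *Ptpn22*, a brake of antigen receptor signaling, fell by 2.47 (SE 0.14).

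In adhesion, 9 of 29 genes, the sort gene *Itgax* among them, were called higher and 8 lower, against 6.49% and 7.02% of all genes. *L1cam*, a neural and leukocyte adhesion molecule, read 8.16, 8.55 and 8.13 in R1, 8.45, 8.55 and 8.15 in R2, and 10.50, 10.56 and 10.46 in R3 (2.23, SE 0.13). *Pecam1* (CD31) rose by 1.92 (SE 0.19) and *Jaml* by 1.89, whereas the integrin alpha chains *Itga1* (-2.33) and *Itgam* (CD11b, -1.54) fell. Complement and coagulation genes were called lower in 9 of 22 cases and higher in none, with coagulation factors *F10* (-3.60, SE 0.28), *F5* (-2.47) and *F13a1* (-2.28) in front.

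Survival and progenitor genes changed in fewer members. *Bcl2*, which blocks mitochondrial apoptosis, read 6.90, 7.09 and 7.11 in R1, 8.07, 7.40 and 7.96 in R2, and 9.64, 9.39 and 9.24 in R3. R3 lay above R2 and R2 above R1 on every array, with R3 minus R1 at 2.39 (SE 0.17, limma adjusted p = 2.13e-05) and R2 minus R1, at 0.78, not called (limma adjusted p = 0.112). Of 23 BCL2 family and death genes 2 were called higher and 5 lower, against 6.49% and 7.02% of all genes. Of 21 stem and progenitor genes 5 were called higher and none lower, and *Myb*, a factor of immature blood cells, was also called higher in R2 than in R1 (0.61, limma adjusted p = 0.039), at 8.27, 8.42 and 8.36 in R1, 9.15, 8.92 and 8.81 in R2, and 9.29, 9.27 and 9.23 in R3. R3 minus R2 was 0.30 for *Myb* (95% interval 0.10 to 0.51) and R3 minus R1 0.91 (SE 0.09). The R2 call for *Myb* was lost after median centering, with the label date as a replicate block (limma adjusted p = 0.0677) and in all 9 fits without 1 array. Of 26 lymphoid-associated genes 5 were called higher and none lower, with the adaptor *Blnk* (1.99) and *Ly6d* (1.71) next after *Cd7*.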

How the data were processed

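The authors deposited 1 linear intensity per probe set and array (34760 probe sets, Affymetrix Mouse Gene ST arrays, GenePattern); the background correction, summarization and normalization are not given in the sources used here. Values were taken to log2. Of the probe sets, 21640 name 1 gene, 1321 several and 11799 none in the platform annotation; 21553 matched RefSeq (GRCm38.p6) by Entrez ID and 0 symbols changed. Each of 19937 genes was read from its brightest probe set on average (954 had several), with no filter on dim values. In 1638 probe sets all 3 arrays of a population hold the same value. The number of arrays limits the precision.

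One limma model (version 3.58.1, R 4.3.3; lmFit, eBayes, 6 residual degrees of freedom) held the 9 arrays, so that R2 adds to the estimate of spread; it was tested on simulated data. The study's methods name an unpaired t-test, run as an alternative. Lists, described by counts and medians, and the set of genes were chosen with earlier results of these data known. Genes named are the 12 of largest difference in each direction that moved the same way on all 3 dates, 12 in each direction of the genes not called against R2 (those with R2 nearer R3 first), at most 5 of largest change per list or any member of a list with 5 or fewer calls, sort and marker genes, and genes the study names. Further genes (*Apoe*, *Tlr6*, *Siglec1*, the mitosis genes called between R2 and R1, *Top2a*, *Ube2c*, *Cdkn2c*, *Ly86*, *Cd180*, *Rsad2*, *Ngp*, *Camp*, *Ltf*, *Kit*, *Il10ra*) were chosen after their values were seen, as were 3 of the motifs (all printed but GAAANNGAA). Promoters are those of the RefSeq table. The populations share label dates: deviations from the means correlated at -0.02, 0.02 and 0.11 between the R1 and R3 arrays of a date, which is not over 0.1 in every pair, so the dates were not taken to pair the arrays.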

Additional observations from a re-analysis of the deposited data

How the results depend on the processing

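Counts of genes called, called and at least 2-fold apart, and in addition not called against R2 were recomputed under 23 alternatives. With 1 array or the 3 arrays of 1 date left out, genes called ranged from 501 to 1268 (higher) and from 616 to 1656 (lower), both lowest without the arrays of date 2. Those at least 2-fold apart ranged from 234 to 328 and from 374 to 475, and those not called against R2 from 26 to 68 and from 38 to 119. The methods' t-test called 1575 and 1779 genes at its unadjusted threshold, with 11 higher and 23 lower not called against R2. After Benjamini-Hochberg adjustment it called 288 higher and 370 lower, of them 155 and 242 at least 2-fold apart. The set not called against R2 held 13 higher genes with each array centered on its median, 27 lower genes with dim probe sets removed and 29 lower with a pseudocount of 16. With median centering 986 genes were called higher and 1320 lower. The causes were not tested. With the label date as a replicate block, 1307 genes were called higher and 1442 lower, of them 307 and 446 at least 2-fold apart, and 25 and 37 were in the set not called against R2.

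By list, lower counts without the arrays of date 2 fell to 5 of 19 for monocyte and granulocyte regulators, 4 of 23 for glycolysis genes, 4 of 30 for cytokine receptors (6 and 7 without those of dates 1 and 3), 2 of 23 for BCL2 family genes (also without those of date 3, and 3 on the R3 and R1 arrays alone), 5 of 29 for adhesion genes (also without those of date 3) and 4 of 25 for purinergic and lipid receptors, and the higher counts to 3 of 21 for stem and progenitor genes (also without those of date 3) and 1 of 23 for BCL2 family genes. Of 202 genes picked by the naming rules, 200 were called, as most of those rules required. All 200 kept their direction in the 23 alternatives, and 105 were called in every one (132 in every one but the adjusted t-test). The alternatives reuse the arrays that picked the genes, so that kept directions were largely set in advance. Genes named after their values were seen, such as *Apoe*, *Mki67* and *Top2a*, are not in the 202. *Spi1*, not called, ranged from -0.03 to 0.22 when the arrays of 1 date were left out. No scaling moved the median of all genes past -0.05. Without signal over background in the deposited values, dim probe sets could not be told from absent ones.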

Other observations

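Genes of small nucleolar RNAs, which lie mostly in introns of host genes and guide modification of other RNAs, were called higher in R3 than in R1 in 5 of 53 cases and lower in none, against 6.49% of all genes called higher. The count was near that share and is no result about the class. *Snord35b* read 4.87, 5.90 and 5.73 in the R1 arrays, 6.23, 6.79 and 5.81 in R2, and 9.51, 9.70 and 9.63 in R3. R3 lay far above both other populations (4.12 over R1, SE 0.29, limma adjusted p = 1.85e-05), a difference larger than that of any other small nucleolar RNA gene. The other 4 were *Snora20* (1.95), *Snord53* (1.01), *Snord58b* (0.86) and *Snord47* (0.77), of which *Snord58b* was also called higher than in R2. *Snord53* lost its call in 15 of 23 alternatives. Of 675 long non-coding RNA genes, 23 were called higher and 9 lower, both below the shares over all genes (6.49% and 7.02%). These genes were chosen after their values were seen.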
